A study of Mus musculus with 9 samples.

Results

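The D-type cyclins (Ccnd1, Ccnd2, Ccnd3), 6 inhibitors of cyclin-dependent kinases (Cdkn1a, Cdkn1b, Cdkn1c, Cdkn2a, Cdkn2b, Cdkn2c) and Myc were followed in organoids grown from sorted mouse prostate basal cells. The 10 genes were taken by symbol from the 49585 genes listed, and all 10 were among the 15867 genes with enough reads to be tested. The cells came from C57BL/6J mice, whose age the labels do not give, and RNA was taken after 5 days of organoid culture in every group. In RD7 (3 libraries) the medium held R-spondin1 at 500 ng/ml and dihydrotestosterone (DHT) at 100 nM, in R (3 libraries) R-spondin1 alone at that dose, and in BM (3 libraries) neither. All 3 media also held B27, N-acetylcysteine, EGF, the BMP antagonist Noggin, the ROCK inhibitor Y-27632 and A83-01, which blocks the TGF-β type I receptor, so every comparison was made with EGF present and TGF-β signaling inhibited. No medium held DHT without R-spondin1. Whether the libraries of a medium came from separate mice or cultures is not stated, and p-values measure the spread between these libraries only.

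R-spondin1 raises the response of a cell to Wnt ligands, and DHT is the potent androgen of the prostate. D-type cyclins bind the kinases CDK4 and CDK6 early in G1, and these complexes phosphorylate the retinoblastoma protein, which releases E2F factors to switch on S phase genes. INK4 proteins (from Cdkn2a, Cdkn2b, Cdkn2c and Cdkn2d) bind CDK4 and CDK6 directly, whereas CIP/KIP proteins (from Cdkn1a, Cdkn1b and Cdkn1c) bind complexes of several cyclins and kinases. MYC is a transcription factor of growth and cell cycle genes and a textbook target of Wnt signaling, as is Ccnd1.

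Levels are FPKM, reads scaled to gene length and library total, and means are given ± SD with n = 3 libraries a medium. Fold changes in log2 units carry an SE and were taken after adding 0.5 FPKM to each value, and folds without a log are ratios of mean FPKM. A gene was called, and is said to have risen or fallen, at a limma p under 0.05 after Benjamini-Hochberg adjustment over all 15867 genes. Reads counted ranged from 6505859 in BM 1 to 24141017 in BM 2. All 7 basal markers, among them Krt5, Krt14 and Trp63, were detected in every medium, with a summed level of 8394 to 9467 FPKM in RD7, 9812 to 10400 in R and 7209 to 8061 in BM. Summed levels were 1801 to 2198, 1714 to 2012 and 2177 to 2721 FPKM in the same order for 7 luminal markers. For 7 leukocyte markers they were at most 4.09, 3.80 and 1.61 FPKM, and for 6 endothelial markers at most 0.434, 0.555 and 0.225. For 7 mesenchymal markers they were 65.1 to 93.2 FPKM in RD7, 22.9 to 29.2 in R and 15.7 to 24.4 in BM, but the rise was that of Dcn (means of 76.6 FPKM in RD7, 21.9 in R and 4.79 in BM). Of the others, Vim, Col1a1, Col3a1 and Acta2 fell in RD7 against R, and Vim and Acta2 fell in R against BM. Vim, Col1a1 and Col3a1 were near the limit of detection, with means of 0.0657, 0.0197 and 0.0192 FPKM in RD7 and 0.2355, 0.240 and 0.291 in R. The part of all these marker sets in the results was not tested.

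With DHT added to R-spondin1, Cdkn2b fell 4.44-fold, Ccnd1, Ccnd2, Cdkn2c and Myc fell by smaller factors, and Cdkn1c rose 2.38-fold. With R-spondin1 added to BM, Ccnd2 rose 1.79-fold and Cdkn1c fell 2.77-fold. Thus 6 of the 10 genes were called in RD7 against R (1 higher, 5 lower), where 31.1% of all genes tested were called (13.4% higher, 17.7% lower). In R against BM 2 of 10 were called (1 higher, 1 lower), against 10.0% of all genes (4.39% higher, 5.64% lower). In RD7 against BM 5 of 10 were called (2 higher, 3 lower), against 47.0% of all genes (21.6% higher, 25.4% lower), a share near the background. The libraries of the 2 media did not overlap for 51.8% of all genes in RD7 against R, 30.3% in R against BM and 52.4% in RD7 against BM, so separate groups are common here. The median log2 fold change of the 10 genes was -0.42 in RD7 against R, 0.16 in R against BM and -0.20 in RD7 against BM, beside -0.09, 0.02 and -0.07 over all genes tested. R against BM and RD7 against R share the R libraries, so a level that stands apart in R enters them with opposite signs. In bulk RNA, fewer cells of a type and less RNA per cell cannot be told apart.

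The counts rested on few libraries. In RD7 against R, 3 of the 10 genes were called without R 1 or R 3. In R against BM, 4 were called without BM 3 and 1 without BM 1, R 1, R 2, R 3 or RD7 3. In RD7 against BM, 2 were called without RD7 2 and 3 without BM 1, BM 2, BM 3, RD7 1 or RD7 3.

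**Figure D1:**
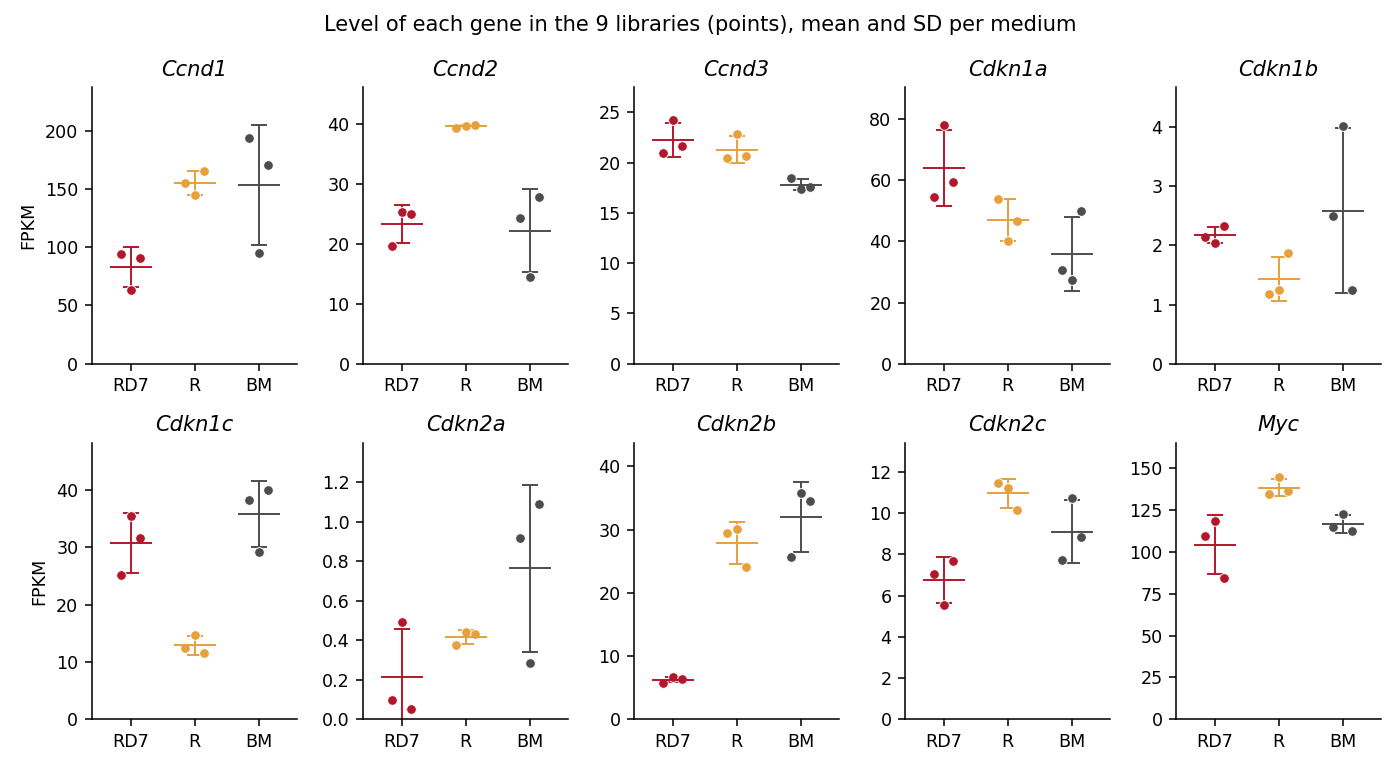
FPKM of each gene in the 9 libraries (points) by medium, with the mean (horizontal line) and SD (error bar, ended at 0 for Cdkn2a in RD7) of 3 libraries. Cdkn2b sits at 5.78 to 6.65 FPKM in RD7 and above 24 in R and BM, while Cdkn1c is lowest and Ccnd2 highest in R.

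Ccnd1, which encodes cyclin D1, was the most abundant D-type cyclin. It stood at 94.4, 63.5 and 90.9 FPKM in RD7, at 155, 145 and 166 in R, and at 194, 95.1 and 170 in BM. All RD7 libraries lay below all R and BM libraries, but BM 2 lay only just above the highest RD7 library. Ccnd1 fell 1.87-fold with DHT on top of R-spondin1 (log2 fold change -0.92 ± 0.25, limma adjusted p = 0.0206) and was 1.85-fold lower in RD7 than in BM (-0.84 ± 0.25, limma adjusted p = 0.0218). Between R and BM it was not called (0.08, 95% interval -0.48 to 0.64, limma adjusted p = 0.860). The difference between RD7 and R was not called without R 1, R 3 or RD7 2 or without a filter on low values (limma adjusted p of 0.0529, 0.0673, 0.0820 and 0.0506), and that between RD7 and BM not without BM 1 or RD7 2 or without the filter (0.0814, 0.0882 and 0.0523). Ccnd1 (chromosome 7, 144929931 to 144939925 on GRCm38) shares 23.4% of its exon bases with LTO1 on the opposite strand, and the libraries carry no strand; LTO1 had means of 18.8 ± 5.60 FPKM in RD7, 30.4 ± 2.76 in R and 28.2 ± 15.9 in BM, with BM 2 lowest as for Ccnd1.

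Ccnd2, the gene of cyclin D2, was highest in R. Its level was 19.7, 25.4 and 25.0 FPKM in RD7, 39.4, 39.7 and 40.0 in R, and 24.4, 14.45 and 27.8 in BM. The R libraries lay within 1 FPKM of each other and above every other library, and RD7 and BM overlapped. Ccnd2 rose in R against BM (log2 fold change 0.88 ± 0.22, limma adjusted p = 0.0296) and fell 1.70-fold in RD7 against R (-0.76 ± 0.22, limma adjusted p = 0.0242), while RD7 and BM were not told apart (0.11, 95% interval -0.37 to 0.60). The rise was not called without BM 1, R 1, R 2, R 3 or RD7 3 (limma adjusted p of 0.0510 to 0.0995), without a filter on low values (0.0723) or with the R and BM libraries alone in the fit (0.0647). The fall was not called without R 1, R 2, R 3, RD7 1 or RD7 3 (limma adjusted p of 0.0520 to 0.0695), without the filter (0.0557) or with the trend on gene length removed (0.109). Ccnd2 shares 7.9% of its exon bases with Gm43126 and 9330179D12Rik on the opposite strand, and the libraries carry no strand. Gm43126 had means of 27.85 FPKM in RD7, 46.12 in R and 27.09 in BM, and 9330179D12Rik 0.197, 0.728 and 0.226. Ccnd3 and Cdkn1a share 4.1% and 7.7% of their exon bases with opposite-strand genes.

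Ccnd3, which encodes cyclin D3, varied least. Its level was 20.99, 24.2 and 21.6 FPKM in RD7, 20.4, 22.8 and 20.6 in R, and 18.5, 17.35 and 17.6 in BM. It was 1.25-fold higher in RD7 than in BM with a limma adjusted p of 0.04996 (log2 fold change 0.31 ± 0.12), just under the threshold, and no BM library reached an RD7 library. That call was lost in 12 of 18 other settings, among them without any 1 of the 9 libraries (limma adjusted p of 0.0503 to 0.163). RD7 against R (0.06, 95% interval -0.20 to 0.32) and R against BM (0.25, -0.01 to 0.51) were not called.

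Summed over the 3 genes, D-type cyclin levels were 113 to 138 FPKM in RD7, 208 to 226 in R and 127 to 237 in BM, where BM 2 alone lay at 127. Ccnd1 held 64.0% ± 7.10 of that sum in RD7, 71.8% ± 1.70 in R and 78.6% ± 3.50 in BM, with RD7 and R overlapping. Ccnd2 held 18.4% ± 3.95 in RD7, 18.4% ± 0.721 in R and 11.5% ± 1.31 in BM, with RD7 and R overlapping and the BM libraries below all others. Ccnd3 held 17.6% ± 3.33 in RD7, 9.87% ± 0.992 in R and 9.88% ± 3.29 in BM, and the RD7 libraries lay above all others. These shares were not tested.

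**Figure D2:**
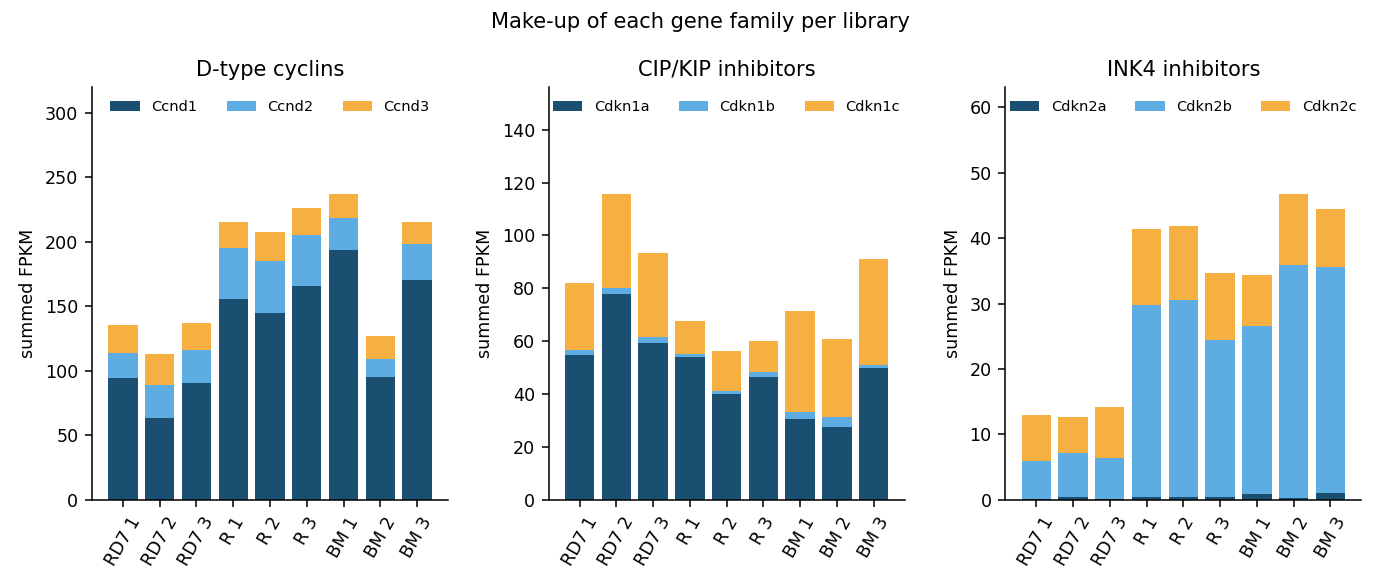
Summed FPKM of the D-type cyclins, the CIP/KIP inhibitors and the INK4 inhibitors in each library, stacked by gene. The INK4 sum holds Cdkn2a, Cdkn2b and Cdkn2c and leaves out Cdkn2d. It is 12.7 to 14.2 FPKM in RD7 and 34.7 to 41.8 in R, and the loss is in the Cdkn2b segment more than in the Cdkn2c segment.

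Myc (chromosome 15, 61985391 to 61990374) was abundant, at the 97.2 percentile of mean FPKM among the genes tested, beside 97.5 for Ccnd1. It stood at 110, 119 and 84.7 FPKM in RD7, at 135, 145 and 136 in R, and at 115, 123 and 113 in BM. Every R library lay above every RD7 and BM library, and RD7 and BM overlapped. Myc fell 1.33-fold in RD7 against R (log2 fold change -0.42 ± 0.14, limma adjusted p = 0.0451) and was not called in R against BM (0.25, 95% interval -0.07 to 0.56, limma adjusted p = 0.293) or in RD7 against BM (-0.17, -0.49 to 0.14). The fall was not called under median-of-ratios scaling (adjusted p of 0.134 by limma), without a filter on low values (0.0699), or without BM 1, BM 2, R 1, R 2, R 3, RD7 1 or RD7 3 (0.0505 to 0.141).

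Among the CIP/KIP genes, Cdkn1c, which encodes p57 and is an imprinted gene, moved most. It stood at 25.3, 35.5 and 31.6 FPKM in RD7, at 12.5, 14.7 and 11.6 in R, and at 38.2, 29.3 and 40.0 in BM. All R libraries lay below all others, and RD7 and BM overlapped. Cdkn1c fell in R against BM (log2 fold change -1.43 ± 0.17, limma adjusted p = 0.00047) and rose in RD7 against R (1.21 ± 0.17, limma adjusted p = 0.00054), and both calls held in all 18 other settings, with limma adjusted p up to 0.00366 and 0.00397. RD7 and BM were not called apart (-0.22, 95% interval -0.60 to 0.17), except with the trend on gene length removed (-0.45, limma adjusted p = 0.0304). The gene (chromosome 7, 143458339 to 143461050) shares 30.7% of its exon bases with the opposite-strand gene Gm44732, which had 75.4 ± 12.9 FPKM in RD7, 31.8 ± 4.18 in R and 93.2 ± 12.8 in BM. Without strand, reads in the shared stretch cannot be assigned to either gene.

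Cdkn1a, the gene of p21 and a direct target of p53, stood at 54.6, 78.0 and 59.4 FPKM in RD7, at 53.9, 40.1 and 46.7 in R, and at 30.6, 27.4 and 49.8 in BM. RD7 lay above both other media in every library, by less than 1 FPKM in the closest pair with R, and R and BM overlapped. It was 1.78-fold higher in RD7 than in BM (log2 fold change 0.86 ± 0.23, limma adjusted p = 0.0136), and neither RD7 against R (0.44, 95% interval -0.07 to 0.95, limma adjusted p = 0.173) nor R against BM (0.42, -0.09 to 0.93, limma adjusted p = 0.274) was called. The call was lost without BM 2 (limma adjusted p = 0.0525) or RD7 2 (0.0580), and R against BM was called without BM 3 (0.0261).

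Cdkn1b, which encodes p27, was the least abundant CIP/KIP gene. Its levels were 2.15, 2.05 and 2.33 FPKM in RD7, 1.18, 1.25 and 1.87 in R, and 2.50, 4.02 and 1.24 in BM, so BM spanned all of RD7 and most of R, and RD7 lay above R. It was not called in any comparison, with log2 fold changes of 0.48 (95% interval -0.18 to 1.15) in RD7 against R, -0.59 (-1.25 to 0.07) in R against BM and -0.10 (-0.77 to 0.56) in RD7 against BM. Without BM 3, R against BM was called (limma adjusted p = 0.0161). BM 2 held the highest Cdkn1b level and the lowest Ccnd1 level within BM, and also the lowest Ccnd2, Ccnd3 and Cdkn1a levels.

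Within the CIP/KIP sum, which was 82.0 to 116 FPKM in RD7, 56.1 to 67.6 in R and 60.7 to 91.0 in BM, Cdkn1c held 31.8% ± 1.79 in RD7, 21.3% ± 4.30 in R and 48.6% ± 4.82 in BM. Cdkn1a held 65.9% ± 2.01 in RD7, 76.3% ± 4.29 in R and 47.6% ± 6.24 in BM. The shares of both genes did not overlap between any pair of media.

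**Figure D3:**
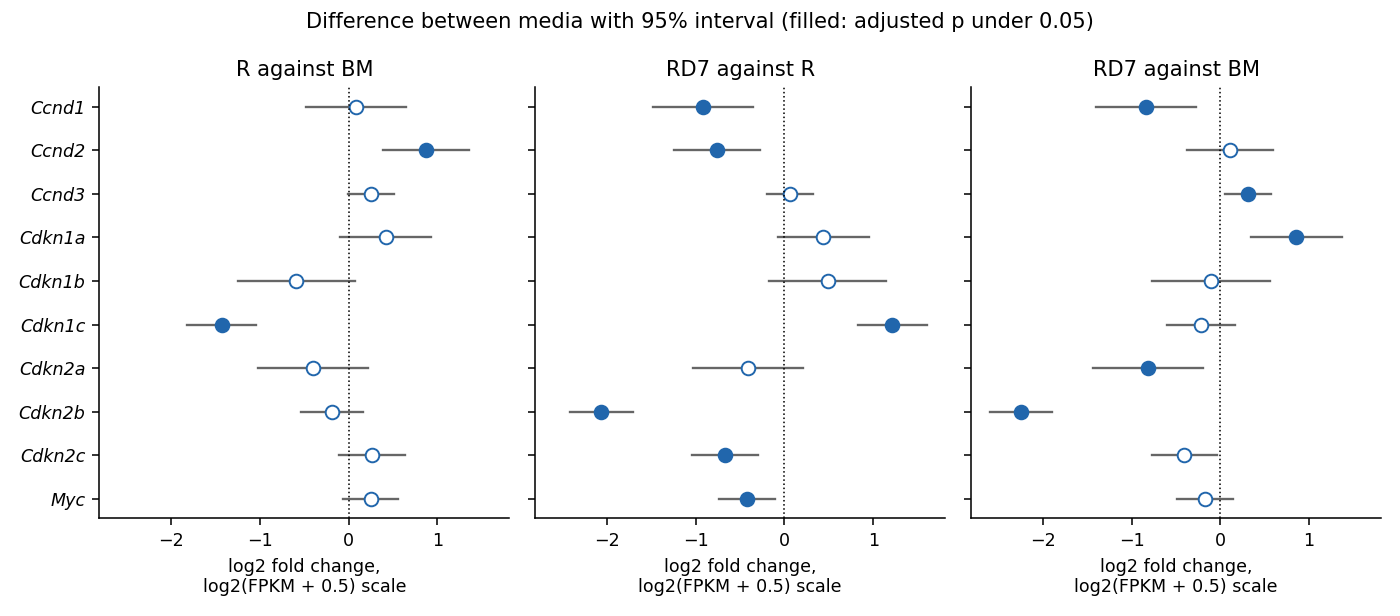
Log2 fold change on the log2(FPKM + 0.5) scale with its 95% interval for each gene in the 3 comparisons; filled circles have a limma adjusted p under 0.05. Cdkn2b lies near -2 in both RD7 comparisons, and Cdkn1c lies at -1.43 in R against BM and at 1.21 in RD7 against R.

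Cdkn2b, which encodes p15 and is a known target of TGF-β signaling, showed the largest change of the 10 genes. It stood at 5.78, 6.65 and 6.42 FPKM in RD7, at 29.5, 30.2 and 24.1 in R, and at 25.7, 35.7 and 34.5 in BM. The RD7 libraries held 144 to 177 reads each and lay far below all others, and R and BM overlapped. Cdkn2b fell 4.44-fold in RD7 against R (log2 fold change -2.06 ± 0.16, limma adjusted p = 6.3e-06) and 5.09-fold in RD7 against BM (-2.25 ± 0.16, limma adjusted p = 3.7e-06). Both calls held in all 18 other settings, with limma adjusted p up to 9.4e-05 and 5.9e-05. R against BM was not called (-0.19, 95% interval -0.54 to 0.17).

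Cdkn2c, which encodes p18, stood at 7.03, 5.54 and 7.69 FPKM in RD7, at 11.5, 11.2 and 10.2 in R, and at 7.72, 10.7 and 8.85 in BM. All RD7 libraries lay below all R libraries, and also below all BM libraries, narrowly in the case of RD7 3 and BM 1. It fell 1.62-fold in RD7 against R (log2 fold change -0.67 ± 0.17, limma adjusted p = 0.0127), a call lost only without RD7 2 among 18 other settings (limma adjusted p = 0.0503). Neither RD7 against BM (-0.40, 95% interval -0.77 to -0.04, limma adjusted p = 0.0671) nor R against BM (0.26, -0.10 to 0.63) was called. RD7 against BM was called with the trend on gene length removed (0.0294) and without BM 1 (0.0491).

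Cdkn2a, next to Cdkn2b on chromosome 4, encodes p16 and, from another first exon, p19ARF, and a value per gene cannot tell them apart. It was near the limit of detection, with 2, 11 and 1 reads in RD7, 7, 12 and 11 in R and 7, 8 and 25 in BM, or 0.0505 to 0.491 FPKM in RD7, 0.374 to 0.440 in R and 0.283 to 1.09 in BM. RD7 overlapped both other media. It was called lower in RD7 than in BM (log2 fold change -0.81 ± 0.28, limma adjusted p = 0.0356), but not with limma-voom on reads (0.0663), without a filter on low values (0.0883), with the RD7 and BM libraries alone in the fit (0.0655), or without BM 1, BM 3, RD7 1 or RD7 3 (0.0854 to 0.126). Neither RD7 against R (limma adjusted p = 0.283) nor R against BM (0.382) was called.

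Together the 3 INK4 genes among the 10 summed to 12.7 to 14.2 FPKM in RD7, 34.7 to 41.8 in R and 34.4 to 46.7 in BM. This sum leaves out Cdkn2d, whose mean of 17.3 FPKM in RD7 lay above the mean of 13.25 for the sum. Cdkn2b held 47.5% ± 4.29 of the sum of the 3 genes in RD7, 71.0% ± 1.37 in R and 76.3% ± 1.41 in BM, with no overlap between any pair of media. Cdkn2d, the INK4 gene outside the 10, encodes p19INK4d and was 1.70-fold higher in R than in BM (limma adjusted p = 0.0405) and 1.97-fold higher in RD7 than in BM (0.00459), with means of 17.3 FPKM in RD7, 15.0 in R and 8.81 in BM. The first of these calls was lost with limma-voom (0.0555), without a filter on low values (0.0891), with R and BM alone in the fit (0.0712), or without BM 1, BM 2, R 1, R 2, R 3, RD7 2 or RD7 3 (0.0505 to 0.167).

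The start regions of the INK4 pair that fell with DHT are shown because both genes lie on chromosome 4 and moved in the same direction in RD7 against R. Each runs from 250 bases before to 50 after a RefSeq start, minus strand, GRCm38.p6. Capitals mark matches on either strand to CTTTGA (TCF/LEF core), the androgen response element (GNACA and TGTNC with 3 bases between), CACGTG (E-box bound by MYC and MAX), TTTCCCGC (E2F) or GGGCGG (GC box, added after the sequences had been read), and no matches overlap.
Cdkn2b, chr4:89310983-89311282: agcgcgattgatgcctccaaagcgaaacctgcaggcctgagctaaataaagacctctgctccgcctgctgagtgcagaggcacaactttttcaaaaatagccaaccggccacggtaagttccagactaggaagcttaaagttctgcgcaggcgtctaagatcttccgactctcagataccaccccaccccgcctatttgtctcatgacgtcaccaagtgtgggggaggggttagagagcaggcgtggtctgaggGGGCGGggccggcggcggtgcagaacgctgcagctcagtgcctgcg
Cdkn2c, chr4:109666707-109667006: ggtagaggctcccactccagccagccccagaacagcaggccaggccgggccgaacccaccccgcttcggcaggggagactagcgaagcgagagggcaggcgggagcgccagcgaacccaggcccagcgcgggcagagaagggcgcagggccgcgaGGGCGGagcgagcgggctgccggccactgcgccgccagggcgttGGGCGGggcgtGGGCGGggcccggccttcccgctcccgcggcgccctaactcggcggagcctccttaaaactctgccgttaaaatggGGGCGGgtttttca
Cdkn2c, chr4:109665323-109665622: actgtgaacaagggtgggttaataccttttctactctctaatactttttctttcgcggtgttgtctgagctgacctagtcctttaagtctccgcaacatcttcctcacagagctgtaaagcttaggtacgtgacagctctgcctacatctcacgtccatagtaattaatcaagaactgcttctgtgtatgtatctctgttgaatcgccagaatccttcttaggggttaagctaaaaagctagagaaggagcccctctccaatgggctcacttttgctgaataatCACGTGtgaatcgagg

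The promoter sequences at hand held 10 such regions for 6 of the 10 genes. They held none for Ccnd1, Ccnd2, Cdkn1c and Myc, which were therefore not searched. None of these 10 regions held the TCF/LEF core, which 16.0% of all 32851 regions held, or the androgen response element, which 0.475% held. A single E-box lay in the second Cdkn2c region (7.15% of all regions had one), and a single E2F match lay in a Cdkn2a region (1.07%). The GC box was in 8 of the 10 regions and in 35.7% of all, with 1 match in Cdkn2b and 4 in the first Cdkn2c region. Because it was added after these sequences had been read, the difference between these shares is no test. A match is only a run of letters, and its absence speaks of this window alone.

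Kinases, cyclins E and their regulators surround these genes in G1. Of 11 such genes tested, 4 fell in RD7 against R and none rose, where 17.7% of all genes tested fell and 13.4% rose. These were Ccne1 (7.73 FPKM in RD7 and 12.3 in R, limma adjusted p = 0.00907), Ccne2 (6.57 and 10.9 FPKM, 0.00668), Cdk2 (33.4 and 47.5 FPKM, 0.00777), the kinase bound by E cyclins, and Skp2 (1.99 and 3.65 FPKM, 0.00792), which directs p27 to degradation. Of 13 pocket protein and E2F genes, 6 fell and none rose, among them E2f1 with a log2 fold change of -0.74 ± 0.15, E2f8 with -0.90 ± 0.18, the retinoblastoma relative Rbl1 with -0.90 ± 0.27 and Tfdp1, a dimer partner of E2F factors, with -0.49 ± 0.14. Rb1 itself also fell. In R against BM, Cdkn2d alone of the 11 was called by limma and none by limma-voom, and 0 of the 13 were called by limma or limma-voom, 0 with an unadjusted p under 0.05.

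Of 18 S phase genes that E2F factors drive, 12 fell and none rose in RD7 against R, where 17.7% of all genes tested fell and 13.4% rose. The median of the 18 was -0.68 on the log2 scale, beside -0.09 over all genes tested. Mcm4, a subunit of the replicative helicase, had means of 37.8 FPKM in RD7 and 85.7 in R (log2 fold change -1.18 ± 0.16, limma adjusted p = 0.00033). Uhrf1, a factor of maintenance DNA methylation, changed by -1.06 ± 0.18, Cdc6, which loads the helicase, by -0.95 ± 0.16 and Mcm3 by -0.95 ± 0.12. In R against BM, limma and limma-voom called 0 of the 18, and 2 had an unadjusted p under 0.05. Of 7 proliferation markers, Top2a, Bub1, Plk1 and Ccnb1 fell in RD7 against R and none rose, against the same 17.7% and 13.4% of all genes.

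**Figure D4:**
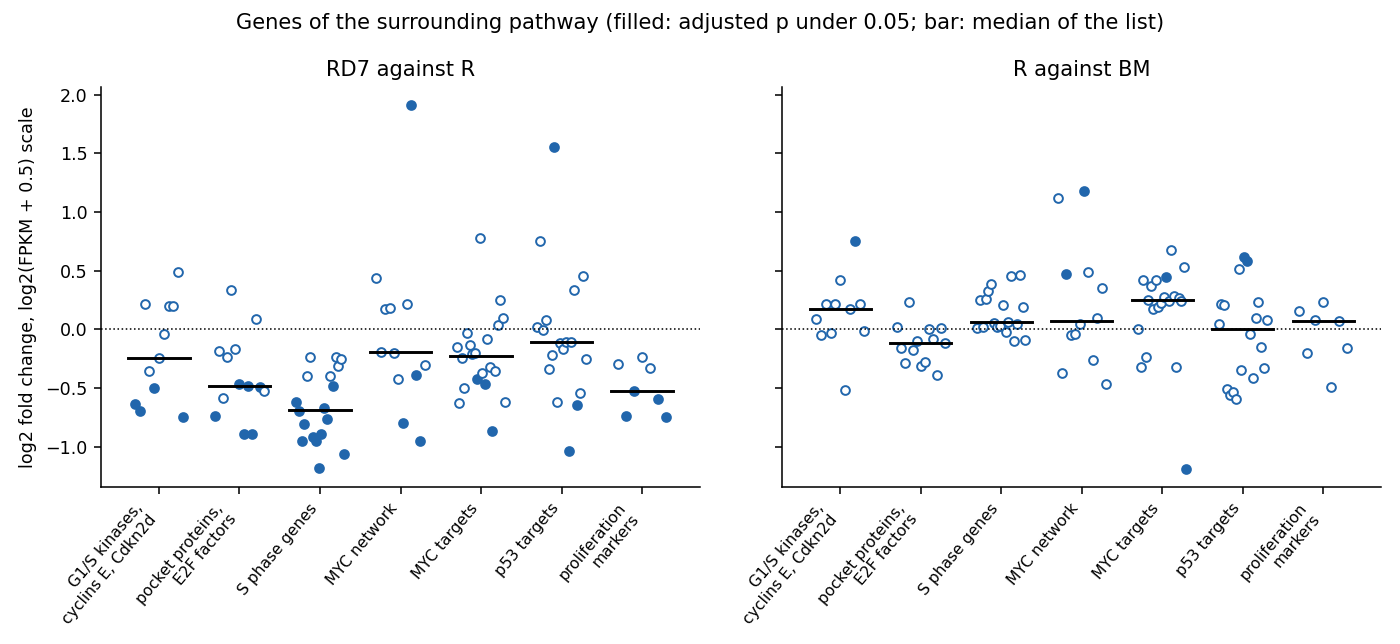
Log2 fold change of each gene in 7 lists of the surrounding pathway, RD7 against R (left) and R against BM (right); filled circles have a limma adjusted p under 0.05 and bars are list medians. In RD7 against R the S phase list has its median at -0.68 with 12 filled circles below 0, and in R against BM none of its 18 circles is filled.

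Among 12 factors of the MYC network, Mxd4, which encodes a MAX partner that opposes MYC, rose 4.26-fold in RD7 against R, with means of 12.2 ± 1.83 FPKM in RD7 and 2.86 ± 0.191 in R (log2 fold change 1.91 ± 0.19, limma adjusted p = 5.3e-05). Mycl fell 1.94-fold, and Mxd1 and Mxi1, which also encode MAX partners, fell 1.81-fold and 1.32-fold. Thus 1 of the 12 rose and 3 fell, a share of called genes near the 31.1% of all genes. Mxd1 rose 2.42-fold and Mlx 1.40-fold in R against BM, and none fell, where 4.39% of all genes rose and 5.64% fell. Of 20 MYC target genes, Odc1 (log2 fold change -0.87 ± 0.14), Nop56 (-0.47 ± 0.12) and Ncl (-0.42 ± 0.13) fell in RD7 against R and none rose, a share of called genes below the 31.1% of all genes. Nop56 rose and Tfrc fell in R against BM, where 10.0% of all genes were called.

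Of 18 p53 target genes other than Cdkn1a, Bax, Fas, Phlda3 and Perp were higher in RD7 than in BM, and Ccng1, Plk2, Eda2r, Rrm2b and Mdm2 were lower, a share of called genes near the 47.0% of all genes. In RD7 against R, Fas rose 3.52-fold and Plk2 and Sesn2 fell, a share of called genes below the 31.1% of all genes. Phlda3 and Perp rose in R against BM, a share near the 10.0% of all genes. Of 9 FOXO target genes other than Cdkn1b, Tsc22d3 rose 4.16-fold and Sod2 1.54-fold in RD7 against R. None fell, and the share of called genes was below the 31.1% of all genes. Tsc22d3 is also a known steroid hormone target. In R against BM, limma and limma-voom called 0 of the 9, and 1 had an unadjusted p under 0.05.

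Lineage and signaling markers moved in the same comparisons as the cyclins. Over all genes tested, 13.4% rose and 17.7% fell in RD7 against R, and 4.39% rose and 5.64% fell in R against BM. Of 9 squamous markers, 8 rose in R against BM, and 7 fell and 1 rose in RD7 against R, with summed levels of 273 to 366 FPKM in RD7, 681 to 876 in R and 218 to 381 in BM. Of 7 basal markers, 4 fell in RD7 against R, namely Itga6 (log2 fold change -1.22 ± 0.25), Col17a1 (-0.92 ± 0.27), Trp63 (-0.74 ± 0.22) and Krt5 (-0.54 ± 0.12). Of 10 Wnt feedback genes, 8 rose and 1 fell in R against BM, and 2 rose and 6 fell in RD7 against R. Of 8 androgen receptor target genes, 6 rose and 1 fell in RD7 against R, and 2 fell in R against BM. The part of these shifts in the results on cyclins and inhibitors was not tested.

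Likeness of pattern was measured by Pearson correlation of log2(FPKM + 0.5) over the 9 libraries, which share 3 media and their depth. The genes most like Ccnd1 were Tgs1 (r = 0.995), Qpct (0.973) and Alcam (0.972), and those most like Ccnd2 were Mafg (0.986), Trp53 (0.983) and Ddx18 (0.968). Trp53, the p53 gene, had means of 81.4 FPKM in RD7, 111 in R and 81.0 in BM. Myc was followed most closely by Capn10 (0.977), Gm28177 (0.968) and Dazap1 (0.961). Cdkn1c was most like its overlapping gene Gm44732 (0.996), then Slc9a3r2 (0.987) and Hp (0.986). Cdkn2b was most like Depdc1a (0.992), Cd200r3 (0.991) and Car8 (0.991), which had means of 3.13 FPKM in RD7, 38.0 in R and 42.8 in BM. For Cdkn2c they included Lrrfip2 (0.984) and Hspa8 (0.980), and they were for Cdkn1a Gm20521 (0.993), Mrpl17 (0.992) and Pabpn1 (0.991) and for Ccnd3 Ttc39c (0.976), Nle1 (0.967) and Rpn1 (0.966). The low genes had looser partners, with a highest r of 0.947 for Cdkn1b (Gm37655) and 0.931 for Cdkn2a (Tnfrsf10b). Among the 10 genes, the pair most alike was Cdkn2b and Cdkn2c (0.80) and the pair least alike Ccnd2 and Cdkn1b (-0.83).

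**Figure D5:**
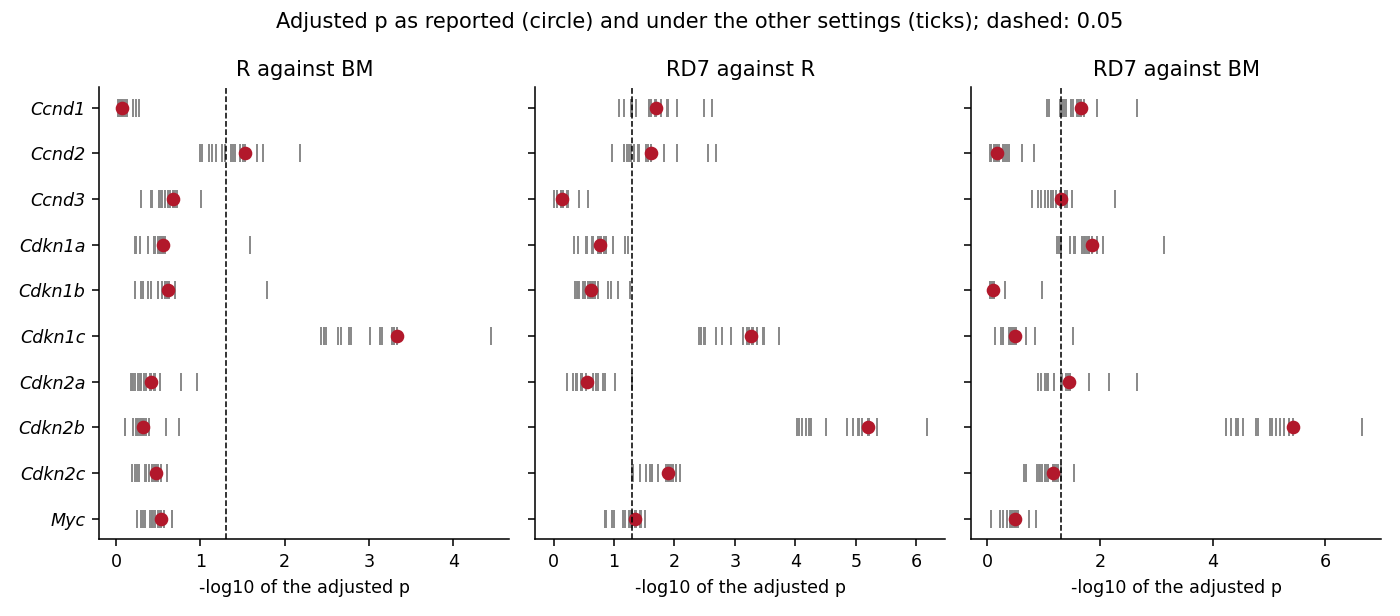
Limma adjusted p of each gene, as -log10, as reported (circles) and under up to 18 other settings (ticks), with the threshold of 0.05 dashed. The calls of Cdkn2b in both RD7 comparisons and of Cdkn1c in RD7 against R and R against BM lie right of the line throughout. Ccnd1, Ccnd2, Ccnd3, Cdkn1a, Cdkn1b, Cdkn2a, Cdkn2c and Myc have ticks on either side in some comparison, as has Cdkn1c in RD7 against BM.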

How the data were processed

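Organoid RNA was measured in 9 libraries, grouped by sample title. Per the labels, cDNA was made with a Takara SmartSeq kit, which carries neither strand nor molecular identifiers. The deposited values are FPKM, and per the submitters' processing notes CASAVA 1.9, STAR 2.6.1a, featureCounts, edgeR 3.24.1 and GRCm38 were used, with roles not stated. Symbols, positions and exon lengths came from GENCODE M21 (99.5% of identifiers matched). Reads were read back as FPKM times length times library total, whole within 0.01 read for 22971 of 26813 genes above 0, with fitted lengths for 3841, among them Cdkn1a (2223 bases) and Cdkn2b (1393). A minimum of 0.5 CPM reached by 3 or more libraries left 15867 genes, tested with limma 3.58.1 (R 4.3.3; trend, robust, two-sided) on log2(FPKM + 0.5), 1 mean per medium over all 9 libraries, 6 residual degrees of freedom. The test was checked on simulated data. Other settings were pseudocounts of 0.1 and 1, other filters, limma-voom, median-of-ratios scaling, removal of the length trend, 2 groups alone, a replicate block and each library left out. Named beside the 10 genes were up to 4 called genes a list with the largest changes and the 3 most alike in pattern, of which a gene like Cdkn2c is not reported here. Members and lists were chosen with earlier results of these data known.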

Additional observations from a re-analysis of the deposited data

How the results depend on the processing

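Over the 10 genes and 3 comparisons, 473 results under other settings kept their direction and side of the threshold, 55 lost a call, 5 gained one and 4 changed sign. Without a filter on low values, the genes called among the 10 numbered 3 in RD7 against R (2 lower), 1 in R against BM (0 higher) and 2 in RD7 against BM (1 higher, 1 lower). With only the 2 media of a comparison in the fit they numbered 1 in R against BM (0 higher) and 3 in RD7 against BM (1 higher). With the length trend removed, 5 were lower in RD7 than in BM. Leaving out single libraries gave 3 to 6 called in RD7 against R (1 higher throughout, 2 to 5 lower), 1 to 4 in R against BM (0 to 2 higher, 1 to 2 lower) and 2 to 4 in RD7 against BM (0 to 1 higher, 2 to 3 lower). Over all genes it gave 3186 to 5739 called in RD7 against R, 930 to 3402 in R against BM and 4836 to 8519 in RD7 against BM. Sign changes, none of them called, were those without BM 2 of Ccnd1 in R against BM (log2 fold change -0.23; -0.23 to 0.28 over single libraries left out), of Ccnd2 in RD7 against BM (-0.16; -0.16 to 0.30) and of Cdkn1b in RD7 against BM (0.22; -0.46 to 0.22), and that of Cdkn1b in RD7 against BM with the length trend removed (0.081). The cause was not tested.

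With the replicate number as a replicate block, 5 of the 10 genes were called in RD7 against R, 1 in R against BM (0 higher) and 3 in RD7 against BM (1 higher). Calls lost with the block were those of Myc in RD7 against R (limma adjusted p = 0.0663), Ccnd2 (0.0550) and Cdkn2d (0.0849) in R against BM, and Ccnd3 (0.0942) and Cdkn2a (0.0665) in RD7 against BM. Libraries of 1 number shared no preparation that the labels state, and their deviations from the medium means correlated at -0.52 to 0.27. No library correlated best with one of its own number. Pairs of different numbers ranged from -0.578 (BM 3 and RD7 1) to 0.578 (BM 3 and R 1), with 0.536 for BM 3 and RD7 2 and 0.525 for R 3 and RD7 1. Which libraries were prepared together cannot be told from these values. Cdkn2a, with 1 to 25 reads a library, is the gene most limited by depth.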
